A study of Danio rerio with 2 samples.

Results

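Wide peaks of Npas4l-HA CUT&Tag were chosen by their measured width in the interiors of the zebrafish chromosomes. A peak was a member when it was on 1 of the 25 chromosomes, was at least 800 bp wide and had its summit in a 100 kb bin holding fewer than 30 listed peaks. Summits on chromosome 4 at 25000000 or beyond were left out, and so were summits within 1000000 bp of either end of the other chromosomes. The rule gave 895 regions out of 192841 listed peaks. They were compared with the 170593 peaks under 800 bp in the same bins. Of the 1321 listed peaks that reached 800 bp anywhere, the members were 67.8%. The area open to the rule held a larger share of all listed peaks, 171488 of 192841. Of these 171488 peaks, 0.522% were members.

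The study profiled cells from dissociated adult heart ventricles, labelled as platelets, in 2 samples. Each sample pooled 30 ventricles, and the pellet used held mainly platelets and erythrocytes. The overexpression sample, Npas4l-HA OE, carried Tg(ubi:loxp-stop-loxp-Npas4l-HA) and Tg(gata1a:Cre-ERT2). In that design, the ubiquitin promoter reaches the HA-tagged Npas4l sequence once tamoxifen-activated Cre, made under gata1a, has removed the loxP-flanked stop. The control sample carried Tg(gata1a:Cre-ERT2) alone, so the Cre transgene was shared by both. The labels used here give no age, no tamoxifen dose and no time of treatment. Both samples were processed with the same mouse antibody to the HA tag, and with 1 sample per group no difference could be set against replicate error. No expression was measured, so the labelled cell type could not be checked against its markers.

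Npas4l, the product of the cloche gene, is a bHLH-PAS transcription factor that acts at the top of the programme forming blood and vessel cells in the zebrafish embryo. Proteins of this family bind DNA as dimers at short sites related to the E-box. In CUT&Tag an antibody directs the Tn5 transposase to chromatin, and the DNA around the antibody is cut and sequenced. A single transcription factor site usually gives a peak about as narrow as a few fragments, whereas wide peaks can form over open promoters, over clustered sites and over stretches where many reads collect. The gene, repeat and motif content of these regions was not analysed here.

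Width chose the members, so their fold enrichment, p-value, q-value and fragment counts, which come from the same contrast, are given as a description without tests. The members had a median width of 906 bp, with quartiles of 841 and 1029 bp. They ranged from 800 to 6350 bp. Of the 895, 426 (47.6%) were under 900 bp, 259 were at least 1000 bp and 16 were at least 2000 bp. The peaks under 800 bp had a median width of 221 bp, with quartiles of 184 and 301 bp.

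The threshold fell on a continuous slope of widths. The 8 members of exactly 800 bp had 4 to 13 overexpression fragments over the summit, and the authors' deposited table gave them folds of 1.88 to 3.51. The 9 peaks of 799 bp, just outside, had 5 to 202 fragments and folds of 2.37 to 4.11. The values on either side overlapped.

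**Figure D1:**
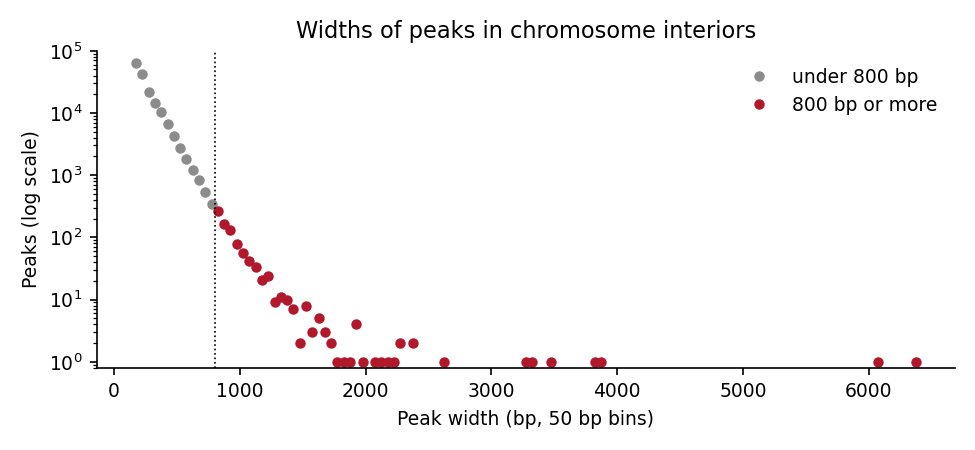
Number of peaks (log scale) in 50 bp bins of width for the 171488 peaks in chromosome interiors; grey points are peaks under 800 bp and red points the 895 members, with a dotted line at 800 bp. The count falls without a break at the line, and single peaks reach 6350 bp.

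The depth behind each region was read from the list. The deposited fold enrichment and p-value together fixed the number of overexpression fragments over a summit, here called the pileup, and the background taken from the control library. The background is in fragments after the control was scaled down to the overexpression library. A control fragment over the summit added 0.552 to it. The background could not fall below 0.994 fragments, the genome-wide value. All 895 members were matched by a whole number of overexpression fragments.

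The median member had a pileup of 7 overexpression fragments, with quartiles of 6 and 10 and a range from 3 to 1710. The median background was 1.66 fragments, with quartiles of 1.105 and 2.76 and a highest value of 622.5. At the peaks under 800 bp the median pileup was 5 and the median background 1.105. Pileups of 5 or fewer lay under 24.6% of the members and 72.1% of the peaks under 800 bp. At the other extreme, 91 members (10.2%) had more than 50 fragments, against 345 of the narrower peaks (0.202%). The control was high at nearly the same share of members: 86 of 895 (9.61%, Wilson 95% interval 7.85% to 11.7%) had a background of 20 fragments or more. Among the narrower peaks the share was 0.209% (0.188% to 0.231%). Intervals here and below cover counting error only, and neighbouring regions are not independent.

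**Figure D2:**
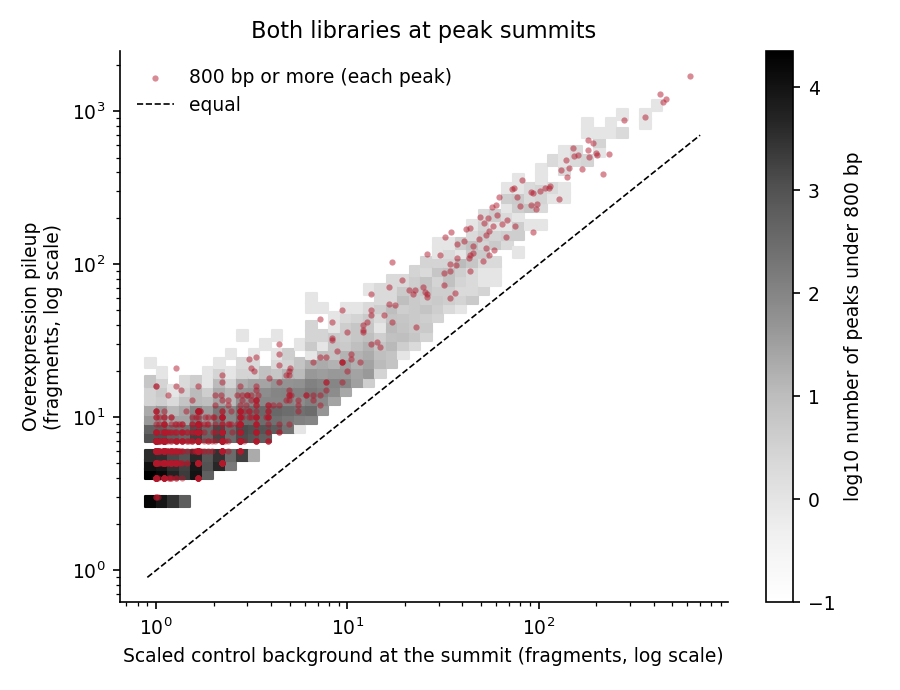
Overexpression pileup against scaled control background at the summit, both in fragments on log scales; each red point is 1 of the 895 members, grey squares count the peaks under 800 bp, and the dashed line marks equal libraries. Most members sit at the lower left, with a median of 7 fragments over 1.66, and a tail of 86 follows the control from 20 to 622.5.

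The members' median fold enrichment in the authors' deposited table was 3.01, with quartiles of 2.51 and 3.51 and a range from 1.59 to 9.66. At the peaks under 800 bp it was 2.38, with quartiles of 2.01 and 2.77. The deposited fold adds 1 fragment to both libraries. Without that addition, the median over peaks of the ratio of pileup to background was 4.22 for the members and 3.62 for the narrower peaks. A q of 0.05 or less in the authors' deposited table was held by 299 members, or 33.4% (Wilson 95% interval 30.4% to 36.6%). Over the whole list 5.49% reached it, and in the same bins 4.43% of the peaks under 800 bp did. A -log10 q of 5 or more was held by 120 members (13.4%), against 0.747% of the whole list. The fold reached 5 in 28 members (3.13%), against 0.303% of the list. Since width came from the same contrast, nothing is read from these shares. The other 596 members did not reach a q of 0.05, and for 52 of them (5.81% of all members) the -log10 q was listed as 0. Among the peaks under 800 bp it was listed as 0 for 29.8%.

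The share of wide peaks was higher at higher pileups. It was 3 of 29673 peaks (0.0101%) at 3 fragments, 0.0885% at 4, 0.439% at 5 and 0.823% at 6. From 7 to 20 fragments it stayed between 1.31% and 1.94%, and the Wilson 95% intervals of the 4 classes in that range overlapped. It was 5.99% at 21 to 50 fragments and 20.9% (17.3% to 24.9%) above 50. The median width of all peaks also rose, levelled off and rose again. It was 191 bp at 3 fragments, 212 bp at 4 and 236 bp at 5. From 6 to 20 fragments it lay between 256 and 264 bp. It was 300 bp at 21 to 50 fragments and 451.5 bp above 50. Within the members, width and pileup were weakly related (Spearman's rho 0.299 across 895 regions of the same pair of libraries), and more weakly at backgrounds under 2 fragments (0.142 across 550). Both values were taken within a set cut at 800 bp, and a shortened range of widths can lower rho. Since width and pileup come from the same contrast, the shares and the rho values are a description, and nothing is read from them.

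**Figure D3:**
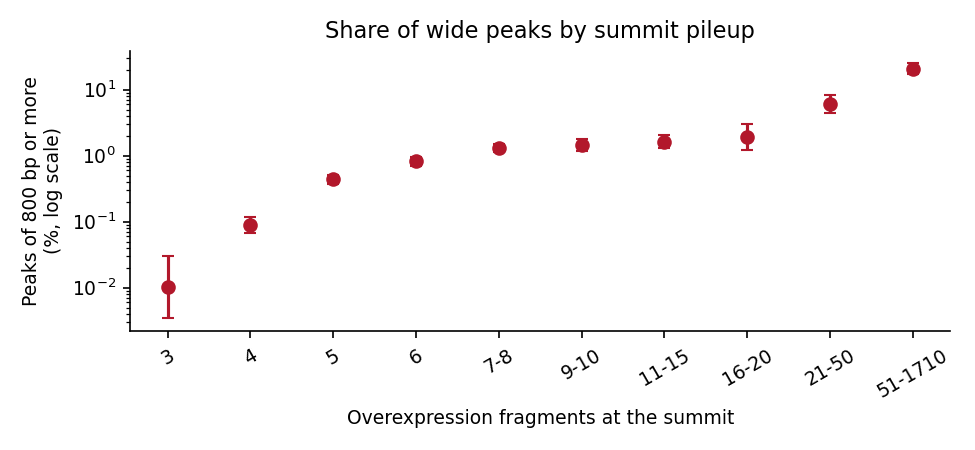
Share of peaks in chromosome interiors that were 800 bp or wider (percent, log scale) by the number of overexpression fragments at the summit; bars are Wilson 95% intervals. The share lies between 1.31% and 1.94% from 7 to 20 fragments and reaches 20.9% above 50.

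Most members lay where the control was low, but less often than the peaks under 800 bp. A background under 2 fragments was found at 61.5% of the members and at 83.6% of the peaks under 800 bp. At backgrounds under 2 fragments there were 550 members, with a largest width of 2133 bp. The 138 of them below 1 fragment had a median pileup of 6, and so did the 412 from 1 to 2. Their median widths were 889.5 and 894.5 bp. A q of 0.05 or less was held by 32 of the 138 (23.2%) and by 104 of the 412 (25.2%). Among the narrower peaks of these 2 background classes the shares were 3.04% and 4.28%. Width came from the same contrast, so nothing is read from the differences. From 2 to 5 fragments of background there were 210 members, with a median pileup of 8.5, and from 5 to 20 there were 49, with a median of 26.

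The 86 members at backgrounds of 20 or more were wider and deeper. They spanned 1209 bp at the median (quartiles 913 and 1719 bp), and their median pileup was 198 fragments, with quartiles of 116 and 369. By the authors' deposited values, 85 of the 86 (98.8%) had a q of 0.05 or less. So did 83.4% of the narrower peaks of the same background class. Of the 120 members with a -log10 q of 5 or more, 83 were in this class. The median ratio of pileup to background was 2.91, with quartiles of 2.56 and 3.40. It was 2.53 at the 356 narrower peaks of the same background class. Of the 16 members that spanned 2000 bp or more, 15 were in this class. At an equal ratio, a deeper background yields a lower Poisson p, and no weight is put on the q of these regions.

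The 10 members with the highest fold enrichment all lay at low backgrounds, from 0.994 to 3.31 fragments. The first, 9.66 in the authors' deposited table, was on chromosome 9 from 2399779 to 2400609, 831 bp wide. All coordinates are counted from 1 (the deposited starts, which count from 0, plus 1), for the GRCz11 assembly that the submitters' processing notes name. The pileup was 21 and the background 1.28, assigned to 15 control fragments within 1 kb. Backgrounds assigned to 1 kb, here and below, could also come from more control fragments in 10 kb. The intervals of such regions would then differ. Pileup over background was 16.4 (exact 95% interval 8.08 to 34.3). The 10 regions were picked for their high fold, so their ratios can be too high. Their intervals do not allow for that choice. The nearest listed peak was 7979 bp away.

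The next 2 had equal values. Each stood at 16 overexpression fragments, with the background at its genome-wide value, and the authors' deposited table gave both a fold of 8.53. One was on chromosome 6 from 47773733 to 47775865. At 2133 bp it was the only member of 2000 bp or more with a background under 20. The other was on chromosome 24 from 1068088 to 1069006 and spanned 919 bp. With the control count set to a floor of 3 fragments over the summit, the ratio was 9.66 at both. That value is not a lower limit, because counting error in both libraries is left aside.

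The fourth, on chromosome 6 from 32905413 to 32906918, was 1506 bp wide and had 16 fragments. Its background was assigned to 15 control fragments in 1 kb, and its ratio was 12.5 (exact 95% interval 5.80 to 27.2). The fifth, on chromosome 1 from 52957523 to 52958520, had 14 fragments, with a background from 136 control fragments in 10 kb, a ratio of 12.1 (6.44 to 21.0). The sixth, on chromosome 17 from 49072913 to 49074122, had 15 fragments over 158 control fragments in 10 kb, a ratio of 11.2 (6.10 to 19.0). In these 3 regions the background came from a window wider than the summit, so fewer control fragments covered the summit itself than the background would give.

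The seventh, on chromosome 11 from 1297299 to 1298301, had 16 fragments against 3 control fragments at the summit, and its ratio of 9.66 had an interval from 2.76 to 51.7. The eighth, on chromosome 17 from 52140027 to 52141591, had 19 against 4, a ratio of 8.60 (2.86 to 34.8). The ninth, on chromosome 1 from 11702596 to 11703685, had 24 fragments. Its background was assigned to 36 control fragments in 1 kb, and its ratio was 7.83 (4.47 to 13.5). The tenth, on chromosome 21 from 43652742 to 43653613, had 25 against 6, a ratio of 7.54 (3.02 to 22.5). The intervals of the 8 regions that have one overlap, so their order by ratio is not resolved at this depth.

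The 28 members with a fold enrichment of 5 or more had 9 to 104 overexpression fragments at the summit, with a median of 14.5. Their backgrounds reached 17.1 fragments at most, and 20 of the 28 were under 2. None was among the 86 (9.61% of all members) at backgrounds of 20 or more, whose ratios ran from 1.71 to 4.71.

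The 5 widest members were all at high backgrounds. The widest spanned 6350 bp on chromosome 10 from 12097436 to 12103785, and its summit held 163 overexpression and 170 control fragments. Its ratio after scaling, 1.74 (exact 95% interval 1.39 to 2.16), was among the lowest of the members, and by fold enrichment it ranked 887 of 895. The next, 6065 bp wide, lay on the same chromosome from 12116568 to 12122632 and held 209 against 110, a ratio of 3.44 (2.72 to 4.37). After it came the region from 12122951 to 12126806, which was 3856 bp wide and had 143 against 74, a ratio of 3.50 (2.62 to 4.70). These 3 belonged to a single stretch described below. The fourth was 3830 bp wide on chromosome 16 from 25931049 to 25934878, where 579 stood against 275, a ratio of 3.81 (3.30 to 4.42). The fifth was 3452 bp wide on chromosome 11 from 17565099 to 17568550, with 183 against 116 and a ratio of 2.86 (2.25 to 3.64).

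The 5 members with the lowest p-values were the deepest in both libraries. They were picked for their low p, so their ratios can be too high, and their intervals do not allow for that choice. The first was on chromosome 24 from 12368725 to 12369934, where 1710 overexpression fragments stood against 1127 of the control, a ratio of 2.75 (exact 95% interval 2.55 to 2.96). Of the other 4, 3 were neighbours on chromosome 7. The region from 53018775 to 53019905 had 1305 fragments against 786, the region from 53011003 to 53013091 had 1215 against 843, and the region from 53013292 to 53014538 had 1146 against 812. Their ratios were 3.01 (2.75 to 3.29), 2.61 (2.39 to 2.85) and 2.56 (2.33 to 2.80). The remaining region, on chromosome 22 from 24523156 to 24524084, held 881 against 505, a ratio of 3.16 (2.83 to 3.53). No region was in both this group of 5 and the 10 with the highest fold enrichment. Groups this small among 895 regions would seldom share a region in any case, so nothing is read from that.

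By their distance to other listed peaks, the members were not all isolated, since the rule counts peaks per 100 kb and sets no distance. The nearest listed peak was a median of 1645 bp away, with quartiles of 585.5 and 3804 bp, against 2315 bp for the peaks under 800 bp. A listed peak lay within 500 bp of 191 members (21.3%) and of 12.5% of the narrower peaks. At backgrounds under 1 fragment the medians were 2355 bp for the members and 2565 bp for the narrower peaks. At backgrounds of 20 or more they were 319.5 and 422 bp.

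When members separated by at most 5000 bp were joined, 71 of the 895 fell into 25 runs, and 824 stood alone. The runs were chosen for description after their values were seen. Of the 86 members at high background 47 (54.7%) were in runs, against 7 of the 550 (1.27%) at backgrounds under 2. Runs were formed from members only, so no such share is given for the narrower peaks. At backgrounds of 20 or more the narrower peaks also lay close to another listed peak, 422 bp at the median. In 14 of the 25 runs every member had a background of 20 or more, and in 3 every member was under 2.

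The longest runs each held 8 members. One covered 29371 bp of chromosome 10, from 12097436 to 12126806, and its 8 members made up 90.4% of that length. Their pileups were 163, 232, 117, 152, 165, 155, 209 and 143 overexpression fragments in order along the chromosome. The control fragments at the same summits were 170, 175, 47, 59, 100, 96, 110 and 74. Both libraries were high at all 8 summits, and the ratio after scaling ran from 1.74 at the first member to 4.66 (exact 95% interval 3.43 to 6.41) at the fourth. The intervals of these 2 members do not overlap, but the 2 were picked as the lowest and highest of the 8. Whether the ratio was even over the 8 summits was not tested. The other run, on chromosome 14 from 20091546 to 20112345, covered 20800 bp with 60.0% in members. Its pileups ran from 194 to 646, its backgrounds from 68.5 to 184.5 and its ratios from 2.503 to 4.27.

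**Figure D4:**
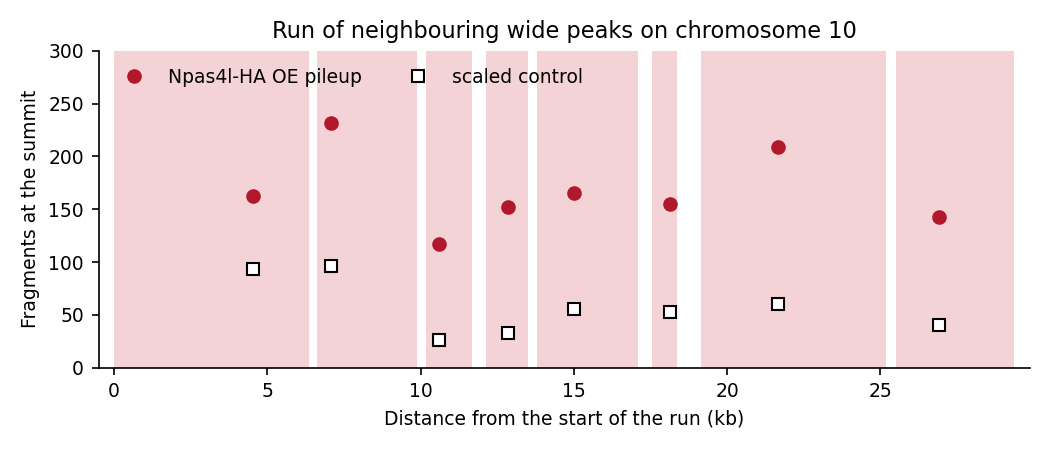
Overexpression pileup (red circles) and scaled control background (open squares), in fragments, at the summits of the 8 neighbouring members on chromosome 10, by distance in kb from the start of the run; shaded bands are the widths of the members. The ratio of pileup to scaled control runs from 1.74 at the first to 4.66 at the fourth.

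The 3 runs at low background were short pairs. On chromosome 22, a pair between 16311263 and 16314432 had summits of 4 and 5 overexpression fragments at the genome-wide background. A pair on chromosome 24 between 14581687 and 14584140 had 7 fragments at each summit, and a pair on chromosome 3 between 37515369 and 37521665 had 10 and 11.

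Members occurred on every chromosome. They made up 0.520% ± 0.115 of the listed peaks in the same bins (SD over chromosomes, n = 25). The lowest share was 0.293% on chromosome 4, of which only the first 25 Mb entered, with 10 members. The highest was 0.873% on chromosome 10, with 51 members. Without its run of 8 members chromosome 10 held 0.737%, still above the next chromosome, 14, at 0.630%. The 95% Wilson interval for chromosome 10 with its run, 0.665% to 1.15%, overlapped that of chromosome 14, 0.471% to 0.842%. At backgrounds under 2 fragments the share was 0.383% ± 0.0764 (SD, n = 25) and ran from 0.235% on chromosome 4 to 0.600% on chromosome 10.

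The share of wide peaks was higher toward the chromosome ends. On the 24 chromosomes other than 4, it was 0.875% (Wilson 95% interval 0.681% to 1.12%) between 1 and 2 Mb from the nearer end. It was 0.700% (0.593% to 0.827%) from 2 to 5 Mb, 0.550% from 5 to 10 Mb and 0.467% (0.428% to 0.509%) beyond 10 Mb. The chromosome's end was taken as the end of its last listed peak. Among peaks with a background under 2 fragments, the 4 shares were 0.655%, 0.506%, 0.398% and 0.348%. Each of these chromosomes had only 0 to 11 low-background members within 5 Mb of an end. On 18 of the 24 chromosomes the low-background share was higher within 5 Mb of an end than beyond. The pileup moved with it: 9.21% of the low-background peaks within 5 Mb of an end had 7 or more fragments, against 6.35% beyond. At 4 and 5 fragments the share of wide peaks was 0.0643% and 0.371% near the ends and 0.0906% and 0.462% beyond. At 6 fragments it was 1.42% against 0.914%, and at 7 or more 2.90% against 1.90%. The difference toward the ends was seen at 6 fragments and above, with 35 and 57 members near the ends in these classes, and not at 4 or 5, with 5 and 19. No test was made, since regions of a single pair of libraries are not replicates. The low-background share also differed by listed peaks per bin, from 0.317% in bins of 1 to 9 to 0.578% in bins of 25 to 29. The parts of pileup and of peaks per bin in the difference toward the ends were not tested.

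**Figure D5:**
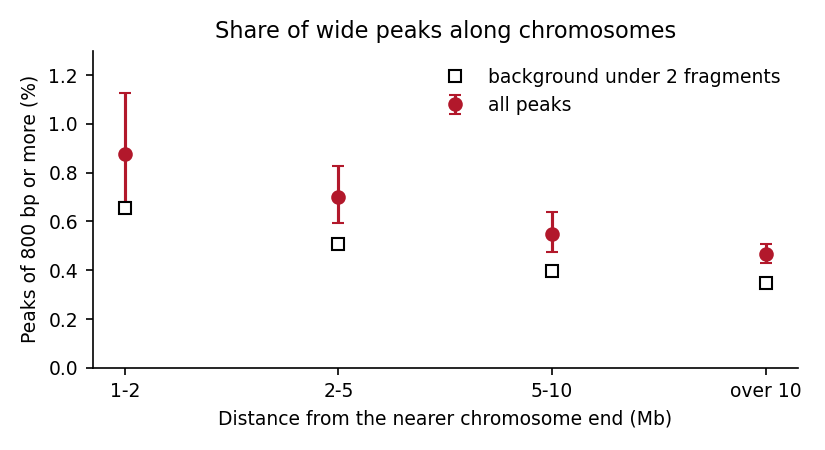
Share of peaks that were 800 bp or wider (percent) by distance in Mb from the nearer chromosome end, for the 24 chromosomes other than chromosome 4; red circles are all peaks with Wilson 95% intervals, open squares are peaks with a background under 2 fragments. Both series fall from the ends inward, from 0.875% to 0.467% and from 0.655% to 0.348%.

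The summit was placed less centrally in the members than in narrower peaks. It lay within 25% of the width from the centre of the peak in 445 of 895 members (49.7%, Wilson 95% interval 46.5% to 53.0%) and in 60.9% of the peaks under 800 bp. The outer 10% at either side held the summit in 107 members (11.96%) and in 11.9% of the narrower peaks. The position is taken relative to width, which chose the members, so nothing is read from the difference. A summit is the highest point of a peak, and other maxima within a wide region are not listed.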

How the data were processed

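The series holds 2 CUT&Tag libraries, 1 control and 1 Npas4l-HA OE, grouped by title, and 1 peak list named by both. Per the submitters' processing notes, FastQC 0.11.4, Trim Galore 0.6.0, Bowtie2 2.4.5, SAMtools 1.15.1, Picard 2.1.0, MACS2 2.2.7.1, deepTools 3.5.0 and the GRCz11 assembly were used; the settings, filters and handling of duplicates are not given in the sources used here. Any duplicates left in would inflate the pileups. The authors deposited, per peak, a fold enrichment (a ratio), a -log10 p, a -log10 q and a score; the lowest -log10 p was 1.304, near a p of 0.05. They are the authors' values and were used within the list only.

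With t overexpression fragments and background b, the fold in MACS2 output is (t + 1)/(b + 1), and p is the upper Poisson tail beyond t. The whole t up to 4096 that best matched the deposited p was kept (relative difference under 5e-05 for 192839 peaks), after a check on simulated data. Backgrounds were assigned to 1 control fragment over the summit (0.552), in 1 kb (0.0851) or in 10 kb (0.00851), tried in that order. A whole number of 1 kb steps is also a whole number of 10 kb steps. These windows cannot be told apart there, and 1 kb was taken. The library titled control is taken as that control from the labels. The library totals are not recorded in the list. Ratios carry exact Clopper-Pearson intervals and shares Wilson intervals (95%). All ratios were taken at summits, the highest points of the peaks, so they can be too high. The intervals do not allow for that. Python 3.11.15, numpy 2.4.6, scipy 1.17.1 and pandas 2.3.3 were used.

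Named regions are the 10 members with the highest fold, the 5 widest and the 5 with the highest -log10 p, plus runs and chromosomes picked after their values were seen. Members and classes were chosen with earlier results of these data known. Planned work on gene starts, gene features, base composition, motifs, repeats and gene lists would need GRCz11 sequence and annotation and was not done. Alternatives covered the width, the peaks per bin, the q and the added fragment.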

Additional observations from a re-analysis of the deposited data

How the results depend on the processing

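Of the other settings listed at the outset 16 were tried, and 12 were not run because they would need GRCz11 sequence or annotation. The number of regions, 895, was 1778 at a minimum width of 700 bp, 259 at 1000 bp, 299 at a q of 0.05 or less and 120 at a -log10 q of 5 or more, and lay within 1.5 times with fewer than 20 or 40 peaks per bin, with members within 1 kb merged and at backgrounds under 20. The median fold enrichment, 3.01, was 2.92 at 700 bp, 3.12 at 1000 bp, 4.22 with no fragment added and 3.80 at a q of 0.05 or less. The share at a q of 0.05 or less, 33.4%, was 25.8% at 700 bp, 51.0% at 1000 bp, 22.6% for a q of 0.01, 28.4% with fewer than 20 peaks per bin and 26.5% at backgrounds under 20, which was added after seeing the data. Stricter thresholds lower counts by construction; the cause of the other shifts was not tested. No paired analysis was possible because each group had 1 sample. With a median of 7 overexpression fragments at a summit, ratios of single regions have wide intervals.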

Other observations

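The rule left out 426 other peaks of 800 bp or more. The 152 in dense bins of chromosome interiors had a median width of 1079 bp, a median pileup of 65.5 overexpression fragments and a median ratio of pileup to background of 3.14. The 148 on chromosome 4 beyond 25 Mb had medians of 1061 bp, 18 fragments and 3.22. The 55 in the terminal megabases had medians of 952 bp, 8 fragments and 3.98, and the 71 on unplaced scaffolds and the mitochondrial sequence had 978 bp, 77 fragments and 2.88. A background of 20 fragments or more was found at 49.3% of those in dense bins and 11.5% of those on chromosome 4. It was found at 7.27% of those in terminal megabases and 59.2% of those on scaffolds and the mitochondrial sequence. Of the 895 regions described above, 9.61% had such a background. Among them it was found at 27 of the 62 in bins of 25 to 29 listed peaks and 32 of the 139 in bins of 20 to 24. In bins of 1 to 9 listed peaks it was found at 3 of 58.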
